A study of Mus musculus with 45 samples.

Results

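The V-ATPase subunits and lysosomal hydrolases are 46 genes of the lysosome, of its acidification and of the control of lysosomal genes, matched by gene symbol. All 46 were found among the 29307 genes counted in mouse bone marrow-derived macrophages, and all 46 were among the 12905 genes expressed highly enough to be tested. They comprise 16 V-ATPase genes, 9 cathepsins, 10 other hydrolases, 8 lysosomal membrane proteins and activators, and the 3 MiT transcription factors Tfeb, Tfe3 and Mitf.

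Macrophages were grown for 6 days in M-CSF from the marrow of C57BL/6N mice aged 6 to 10 weeks that carried one of 3 knock-in alleles of Famin (Lacc1), an enzyme of purine metabolism. Famin p.254I encodes the human non-risk variant and served as the reference here, Famin p.254V the common risk variant, and Famin p.284R the variant linked to monogenic disease, so that every group carried an engineered allele. Libraries that share a genotype and a number were taken as cultures of 1 mouse, since 5 mice of each genotype were used, although the labels do not spell this out. For 24 h, cultures were left unstimulated (M0), were given LPS at 20 ng/mL together with IFN-γ at 50 ng/mL (M1), or received IL-4 at 20 ng/mL (M2). This gave 9 groups of 5 poly(A) RNA libraries, and gene counts cannot check which allele a library carries.

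The V-ATPase is a rotary proton pump that acidifies lysosomes, endosomes and phagosomes. Its cytosolic V1 sector hydrolyzes ATP and its membrane-embedded V0 sector carries the protons, and the acid it produces activates the cathepsins, a family of lysosomal proteases, and the glycosidases, lipases and other hydrolases that digest phagocytosed material. The MiT factors are basic helix-loop-helix proteins that bind E-box sequences, among them the CLEAR element found near the start sites of many lysosomal genes. Macrophages and osteoclasts, which share a precursor, express several of these genes at very high levels.

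Total counts per library ranged from 17239009 to 43740283. All 8 macrophage markers had a median of at least 46.6 CPM (counts relative to library size, scaled between libraries by the TMM method) under each polarization, but their sum went from 19863 to 33542 CPM in M0 to 11644 to 15544 CPM in M1 and 10037 to 14226 CPM in M2, mainly through Lyz2 (medians of 17247, 5771 and 5191 CPM). Of the 5 M1 markers, Gbp2 rose from a median of 66.2 CPM in M0 to 8599 CPM in M1 and Nos2 from 0 to 19.7 CPM, whereas Il6 and Il12b stayed below 1 CPM in the median M1 library. Of the M2 markers, Retnla went from 0.099 CPM in M0 to 3279 CPM in M2 and Arg1 from 0.276 to 1030 CPM. Of the 6 dendritic cell markers, Clec9a had a median of 294 CPM in M1 and 0.407 CPM in M0, and Xcr1 of 8.17 and 0.0276 CPM. Zbtb46 went the other way, from 0.578 CPM in M0 to 0.316 CPM in M1. Flt3, Ccr7 and Siglech stayed below 1 CPM in the median M1 library. The part of Clec9a in the M1 results was not tested. Lymphocyte, erythroid and mast cell marker sums did not exceed 2.29 CPM in any library. Neutrophil markers summed to medians of 72.8, 59.4 and 30.7 CPM in M0, M1 and M2 and to at most 274 CPM, and fibroblast markers to 33, 11.2 and 17.6 CPM and at most 86.6 CPM. The part of these marker changes in the results was not tested. Because RNA was taken from whole cultures, fewer cells of a type and less RNA per cell cannot be told apart.

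The lysosomal transcripts made up a smaller share of the median M1 library and a larger share of the median M2 library. Together the 46 genes accounted for a median of 8.37% of normalized counts in M0, 6.67% in M1 and 9.61% in M2, with ranges that overlapped between M0 and either of the others (75523 to 105025 CPM in M0, 62309 to 77751 CPM in M1 and 83114 to 104022 CPM in M2). In M1 against M0, 39 of the 46 passed the test of edgeR at an adjusted p under 0.05, 10 higher and 29 lower, with a median log2 fold change over the members of -0.215. Across all genes tested 77.6% passed in that comparison, 37.2% higher and 40.5% lower, and the median change was -0.0271. Scaled by total counts alone, 9 members were higher and 32 lower in M1, and 37.7% of all genes called were higher in place of 47.9%. In M2 against M0, 40 of 46 passed, 25 higher and 15 lower, with a median of 0.124, where 76.8% of all genes passed, 37% higher and 39.8% lower, with a median of -0.0249. In M1 against M2, 39 passed, 7 higher and 32 lower, where 79.1% of all genes passed, 39% higher and 40.1% lower. With 15 libraries on each side most expressed genes passed, so the number of members called lies near the background and the sizes and directions below carry the description. The counts of each class and further list below are to be read against these same shares of all genes. The libraries of M1 and M0 did not overlap for 24 members (5 higher, 19 lower), against 28.6% of all genes (15.2% higher, 13.5% lower). Those of M2 and M0 did not overlap for 14 (11 higher, 3 lower), against 23.4% (13.6% higher, 9.78% lower), and those of M1 and M2 for 27 (4 higher, 23 lower), against 35.7% (17.6% higher, 18.1% lower). A change of at least 2-fold was called for 9 members in M1, against 21.6% of all genes, for 5 members in M2, against 16.4%, and for 12 members in M1 against M2, against 24.6%. The comparisons with M1 and with M2 share their M0 libraries and are therefore given side by side.

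**Figure D1:**
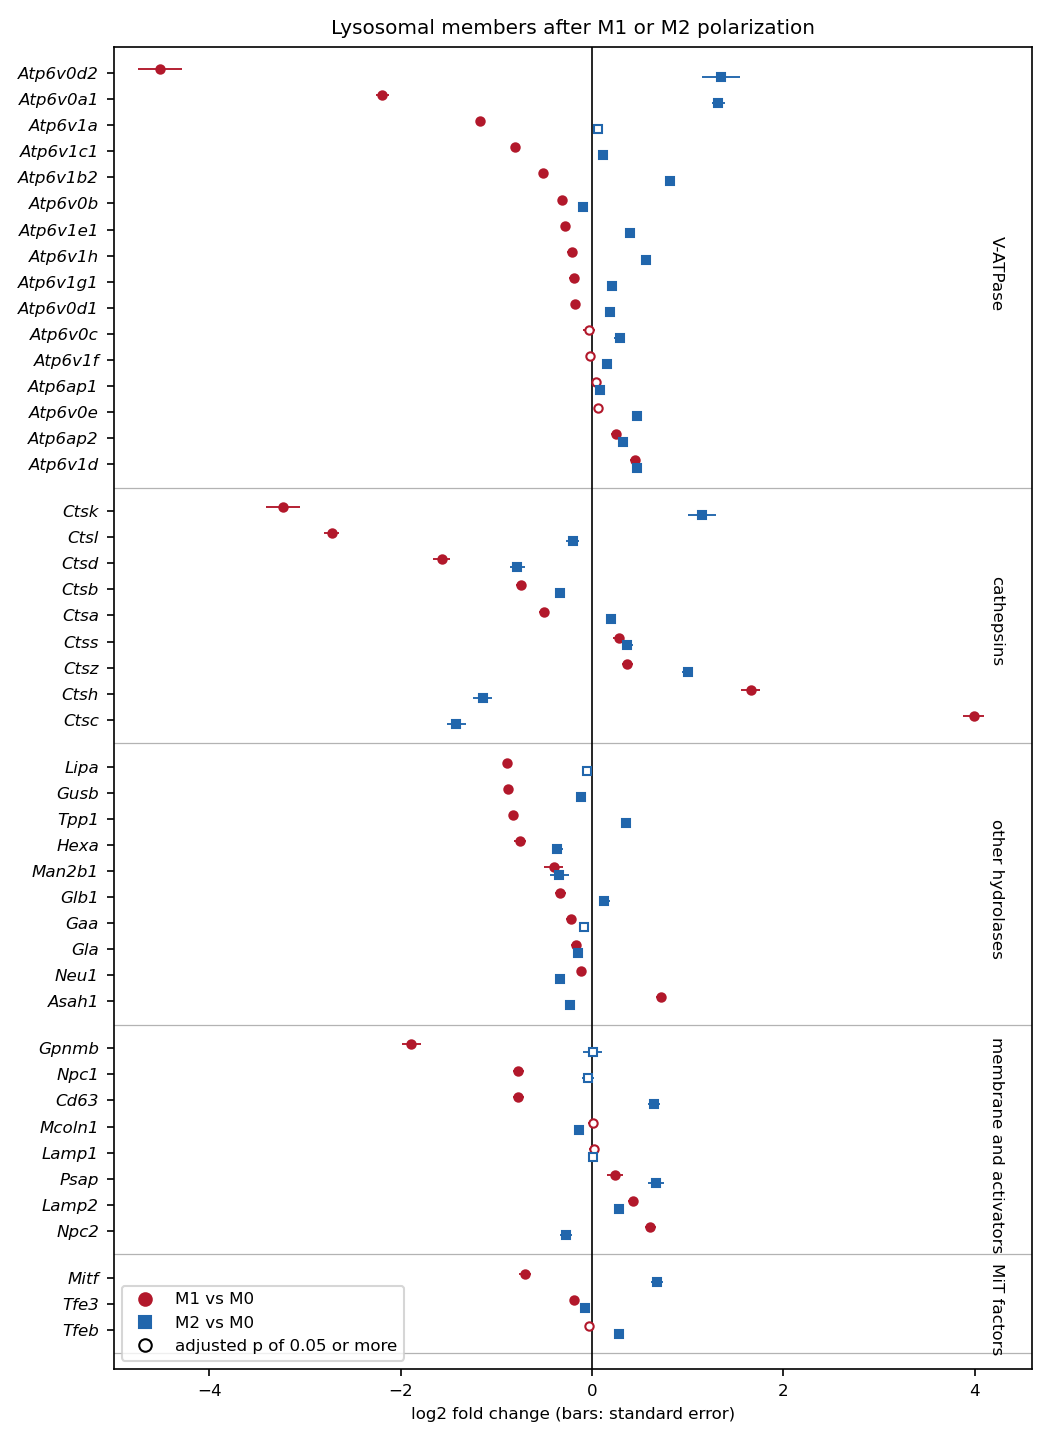
Log2 fold change (x axis) of each of the 46 members (y axis, grouped by class) in M1 against M0 (circles) and M2 against M0 (squares), with standard errors as bars, from 15 libraries per polarization; open symbols did not pass an adjusted p of 0.05. Changes ranged from -4.52 (Atp6v0d2) to 3.99 (Ctsc) in M1 and from -1.42 (Ctsc) to 1.35 (Atp6v0d2) in M2.

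V-ATPase transcripts were lower in M1 and higher in M2. The summed level of the 16 genes had a median of 5591 CPM in M0 (4786 to 6284), 3581 CPM in M1 (3243 to 3803) and 8693 CPM in M2 (7975 to 9122). The ranges of the 3 polarizations did not overlap. In M1, 10 of the 16 genes fell, 2 rose and 4 did not pass, against 40.5% of all genes lower and 37.2% higher. The median log2 fold change was -0.196. In M2, 14 rose, 1 fell and 1 did not pass, against 37% of all genes higher and 39.8% lower. The median change was 0.309. Scaled by total counts alone, 12 rose and 1 fell in M2, and 2 rose and 12 fell in M1. Compared directly, 13 of the 16 were lower in M1 than in M2 and none was higher, with 3 that did not pass, against 40.1% of all genes tested that were lower in M1 than in M2.

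The widest changes belonged to the V0 sector, of which 4 of 6 genes fell and none rose in M1, and 5 rose and 1 fell in M2. Atp6v0d2 encodes the alternative d subunit of the V0 stalk, which is abundant in osteoclasts and takes part in their fusion (GRCm38, chr4:19876841-19922605, minus strand). In M0 its level ranged from 213 to 919 CPM with a median of 484 CPM. In M1 it ranged from 7.37 to 71.7 CPM with a median of 19.4 CPM, and in M2 from 1072 to 1618 CPM with a median of 1416 CPM. No M1 library reached the lowest M0 library and no M2 library was as low as the highest M0 library. The fall in M1 was 22.9-fold (log2 fold change -4.52 ± 0.23, SE, adjusted p = 7.41e-21) and the rise in M2 2.54-fold (1.35 ± 0.20, adjusted p = 1.09e-07), each seen in 15 of 15 mice.

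Atp6v0d2 in unstimulated cells spread widely within each genotype. In M0 the Famin p.254I libraries held 919, 651, 405, 213 and 459 CPM, the Famin p.254V libraries 833, 584, 467, 443 and 484 CPM, and the Famin p.284R libraries 855, 662, 263, 441 and 557 CPM, in the order of their replicate numbers. Replicate 1 was the highest of each genotype. Under M1 the library of Famin p.254I replicate 5 stood at 71.7 CPM, above the 27.7 CPM of the next library of its group, and leaving out each mouse in turn gave log2 fold changes of -4.71 to -4.39. What a replicate number shared across genotypes stands for is not stated, and its part in these levels was not tested.

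Atp6v0a1, the a1 subunit that forms part of the proton path (chr11:101009452-101063719, plus strand), followed the same order of levels. It ranged from 549 to 782 CPM in M0, from 110 to 203 CPM in M1 and from 1380 to 1982 CPM in M2, with medians of 654, 137 and 1540 CPM. The 3 ranges were separate. The fall in M1 was 4.57-fold (-2.19 ± 0.07, adjusted p = 7.02e-28) and the rise in M2 2.5-fold (1.32 ± 0.07, adjusted p = 2.02e-20). The other V0 genes moved less. Atp6v0d1, the broadly expressed d subunit, had a log2 fold change of -0.18 in M1 and 0.19 in M2, the proteolipid gene Atp6v0b -0.31 and -0.09, and the e subunit Atp6v0e rose by 0.47 in M2 but did not pass in M1 (0.06, adjusted p = 0.07). For Atp6v0c, the proteolipid of the rotating ring, the annotation holds the copies Atp6v0c-ps1 and Atp6v0c-ps2, so that its 40.7 CPM in the median M0 library may miss or include reads of these copies.

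**Figure D2:**
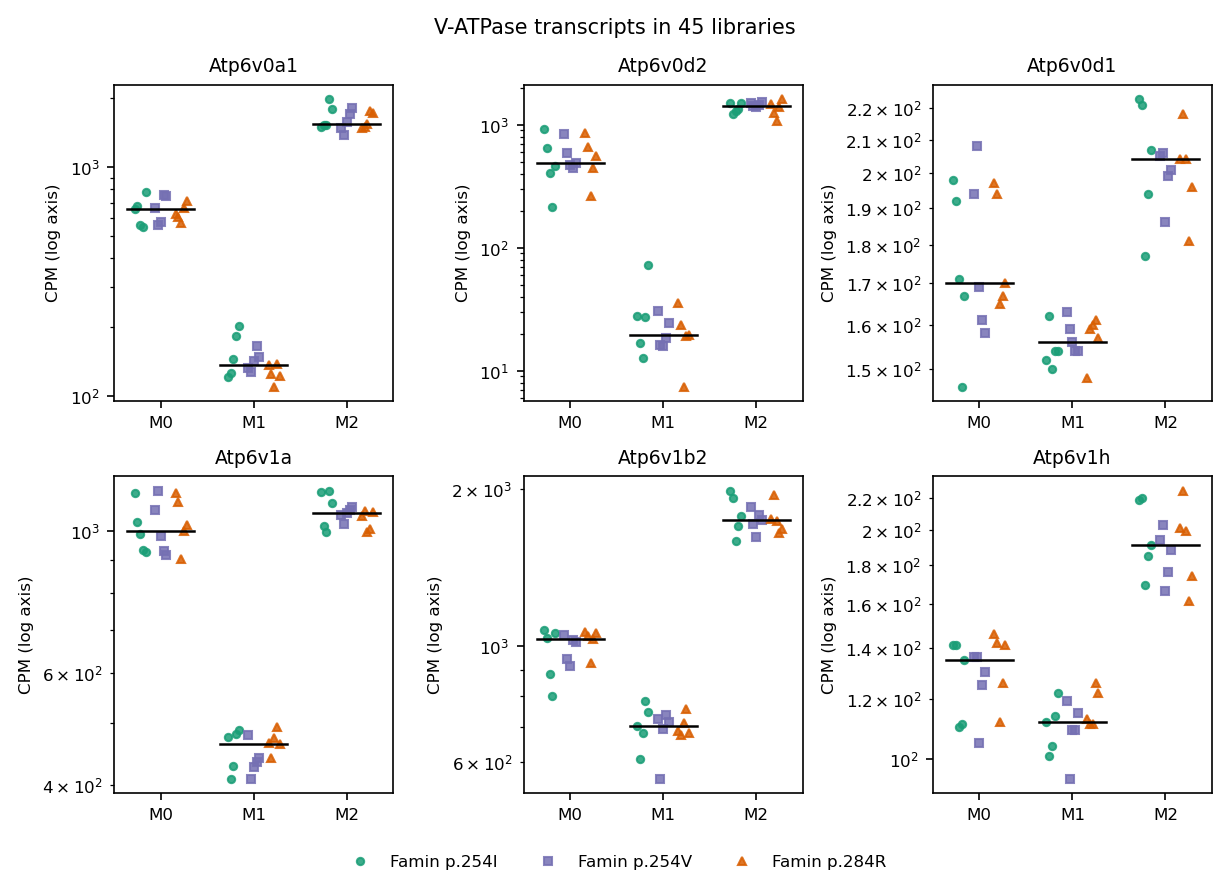
CPM on a log axis (y) of 6 V-ATPase genes in M0, M1 and M2 (x), each point a library and each line the median of 15 libraries; symbols mark the Famin genotype. Atp6v0d2 falls from a median of 484 CPM in M0 to 19.4 CPM in M1 and reaches 1416 CPM in M2, whereas Atp6v0d1 stays between 146 and 223 CPM in all libraries.

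Of the 8 V1 genes, 6 fell and 1 rose in M1, and 7 rose and none fell in M2. Atp6v1a encodes the catalytic A subunit, and its level was 904 to 1156 CPM in M0, 409 to 493 CPM in M1 and 996 to 1153 CPM in M2. M1 libraries lay below all others, a 2.24-fold fall (-1.17 ± 0.04, adjusted p = 2.94e-27), and the M0 and M2 ranges overlapped (0.06 ± 0.04, adjusted p = 0.139, and 0.0299 without Famin p.254V replicate 2). Atp6v1b2, its partner B subunit, ranged from 801 to 1071 CPM in M0, from 556 to 783 CPM in M1 and from 1590 to 1986 CPM in M2. It fell 1.43-fold in M1 and rose 1.77-fold in M2 (0.82 ± 0.05, adjusted p = 1.47e-19), without overlap with M0 in either case.

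Atp6v1c1, the C subunit that joins the sectors when the pump assembles, fell 1.74-fold in M1 (-0.80 ± 0.05, adjusted p = 6.09e-19), from 203 to 284 CPM in M0 to 115 to 160 CPM. In M2 it reached 231 to 301 CPM (0.12 ± 0.05, adjusted p = 0.017, and 0.223 when scaled by total counts alone). Atp6v1h, the regulatory H subunit, rose 1.48-fold in M2 (0.57 ± 0.05, adjusted p = 1.24e-12), from 105 to 146 CPM to 161 to 225 CPM, and fell by 0.21 on the log2 scale in M1, where its range overlapped with that of M0. The stalk subunit Atp6v1d was the V1 gene that rose in M1, with 72.0 to 97.9 CPM in M0 and 103 to 132 CPM in M1 (0.45 ± 0.05, adjusted p = 3.67e-11), and it was as high in M2, with 103 to 140 CPM (0.47 ± 0.05). Both accessory genes rose in M2, Atp6ap1 by 0.08 and Atp6ap2 by 0.33, and Atp6ap2 also rose in M1 by 0.25.

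Several V-ATPase subunits have alternative genes, whose levels were compared as RPKM, that is CPM per kilobase of annotated exon. Transcripts of the a subunit came mainly from Tcirg1 (a3) and Atp6v0a1, which had medians of 153 and 99.7 RPKM in M0. In M1 Tcirg1 stood at 178 RPKM, Atp6v0a1 at 20.8 RPKM and Atp6v0a2 at 25.3 RPKM, and in M2 at 240, 235 and 13.8 RPKM. Expressed as shares of the a subunit RPKM, Atp6v0a1 held 32.5% to 41.6% in M0, 7.92% to 14.0% in M1 and 45.5% to 55.2% in M2. Tcirg1 held a median of 58.2%, 77.9% and 48.3%, and Atp6v0a2 3.54%, 11.2% and 2.94%. Atp6v0a2, an a subunit of Golgi and endosomes, rose in M1 by 1.32 ± 0.05 on the log2 scale, from a median of 64.3 CPM to 170 CPM, and Tcirg1 by 0.19 ± 0.06.

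The d subunit showed the wider shift. Atp6v0d2 made up a median of 65.0% of d subunit RPKM in M0 (49.1% to 75.4%), 7.57% in M1 (2.94% to 23.5%) and 82.7% in M2 (77.6% to 84.5%), and Atp6v0d1 the rest. In M1 the d subunit transcripts were therefore mainly those of Atp6v0d1, at 87.2 RPKM against 7.16 RPKM. In M2 they were mainly those of Atp6v0d2, at 521 RPKM against 114 RPKM. For the B, C and E subunits the alternative genes Atp6v1b1, Atp6v1c2 and Atp6v1e2 had a median of 0 RPKM under every polarization, and Atp6v1g2 made up 6.39% of G subunit RPKM in M0 and 4% in M2. These shares rest on the union of annotated exons as the length, which overstates the length of genes with rarely used exons.

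**Figure D3:**
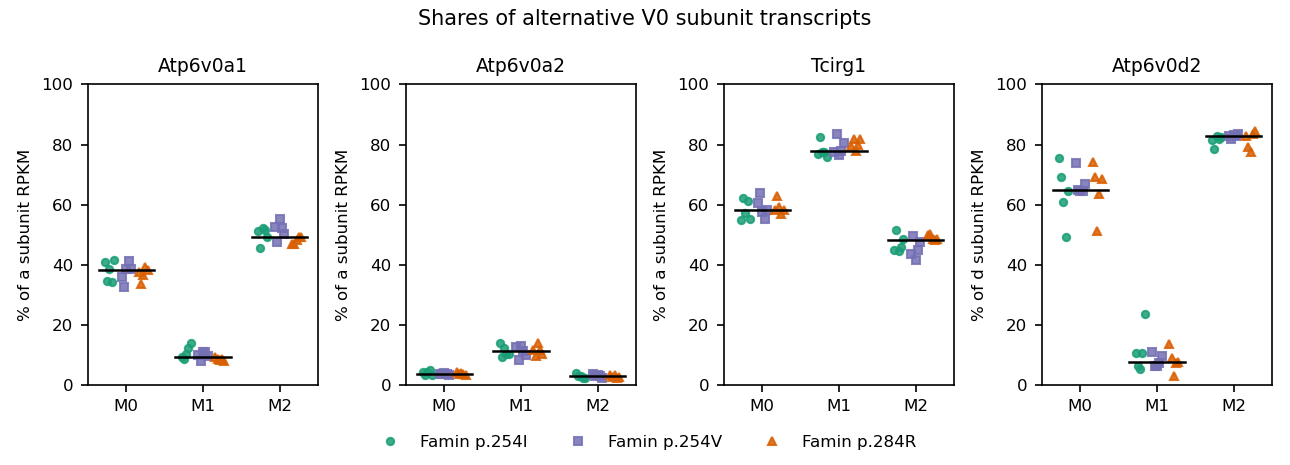
Share of the summed RPKM of the a subunit genes held by Atp6v0a1, Atp6v0a2 and Tcirg1, and of the d subunit genes held by Atp6v0d2 (y, percent), in M0, M1 and M2 (x); points are libraries and lines medians of 15. Atp6v0d2 drops from 65.0% in M0 to 7.57% in M1 and reaches 82.7% in M2.

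Of the 11 V-ATPase genes outside the 46, among them Tcirg1 and Atp6v0a2, 6 were tested. In M1, 3 of these rose and none fell, and in M2 3 rose and 2 fell. The rises in M2 were led by Tcirg1 (0.60, from 703 to 1104 CPM) and Atp6v0a2 (0.54, from 64.3 to 93.0 CPM), and the falls by Atp6v1g2 (-0.76), at 5.53 CPM, and Tm9sf4 (-0.14). The summed osteoclast markers moved with Atp6v0d2. The sum of the 8 markers had a median of 429 CPM in M0 (351 to 664), 236 CPM in M1 (209 to 266) and 996 CPM in M2 (630 to 2580). Dcstamp, a fusion protein of osteoclasts and giant cells, had medians of 33.7, 2.04 and 180 CPM and Mmp9 130, 17.9 and 478 CPM. Ocstamp (0.578, 6.23 and 163 CPM), Nfatc1 (70, 91.9 and 43 CPM) and Tnfrsf11a (136, 108 and 95.5 CPM) had other orders of levels, and the calcitonin receptor Calcr was at 0 and Oscar below 1 CPM in the median library of each polarization. Their part in the Atp6v0d2 and Ctsk levels was not tested.

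Cathepsins moved in both directions and over the widest range. All 9 passed in both comparisons, 4 higher and 5 lower in M1 and 4 higher and 5 lower in M2, with median log2 fold changes of -0.504 and -0.199. Of all genes tested, 37.2% were higher and 40.5% lower in M1, and 37% and 39.8% in M2. Their summed level was 35435 to 47777 CPM in M0, 28197 to 34092 CPM in M1 and 30550 to 38643 CPM in M2. In M0 Ctss, Ctsb and Ctsd were close to each other at 3738, 3354 and 3200 RPKM, or 30.1%, 28.6% and 28.4% of cathepsin RPKM. In M1 Ctss made up 45.5%, Ctsb 19.9%, Ctsd 11.6% and Ctsc 8.47%, and in M2 Ctss 41.2%, Ctsb 23.1%, Ctsd 16.9% and Ctsz 11.8%.

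Ctsc encodes the dipeptidyl peptidase that activates the serine proteases of granules (chr7:88278085-88310888, plus strand). It held 226 to 565 CPM in M0, 4575 to 5923 CPM in M1 and 88.9 to 207 CPM in M2, so that each polarization occupied a range of its own. It rose 15.8-fold in M1 (3.99 ± 0.11, adjusted p = 6.83e-30) and fell 2.68-fold in M2 (-1.42 ± 0.10, adjusted p = 5.43e-16), in 15 of 15 mice each. Ctsh, an aminopeptidase of lysosomes, had the same order of levels at 208 to 423 CPM in M0, 808 to 1275 CPM in M1 and 106 to 205 CPM in M2. It rose 3.16-fold in M1 (1.66 ± 0.10, adjusted p = 5.91e-19) and fell 2.20-fold in M2 (-1.14 ± 0.10, adjusted p = 9.11e-14).

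Ctsk, the collagen-degrading cathepsin of osteoclasts, went the other way from a low level. It ranged from 7.51 to 22 CPM in M0, from 0.550 to 2.57 CPM in M1 and from 22.7 to 38.2 CPM in M2. The fall in M1 was 9.35-fold (-3.23 ± 0.18, adjusted p = 4.48e-19) and the rise in M2 2.21-fold (1.15 ± 0.15, adjusted p = 4.38e-09). Even in M2 its median of 18.9 RPKM amounted to 0.157% of cathepsin RPKM. Ctsl, an endopeptidase that processes antigens and the invariant chain, fell 6.59-fold in M1 (-2.72 ± 0.08, adjusted p = 1.23e-29), from 2638 to 4377 CPM in M0 to 414 to 633 CPM. In M2 it ranged from 2292 to 3452 CPM, overlapping with M0 (-0.20 ± 0.07, adjusted p = 0.013, and 0.0503 without Famin p.254I replicate 1).

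Ctsz, a carboxypeptidase, rose in M2 (1.00 ± 0.06, adjusted p = 1.35e-17), from 919 to 1263 CPM in M0 to 1812 to 2421 CPM without overlap, and in M1 it reached 1023 to 1826 CPM (0.37 ± 0.06). The aspartic protease Ctsd fell in both, by 1.57 in M1 and by 0.78 in M2 on the log2 scale, and so did Ctsb, by 0.74 and 0.33. Ctss rose by 0.28 in M1 and 0.37 in M2, with ranges that overlapped those of M0. Ctsd shares 808 exon bases with Gm49369 on its own strand, Ctsl 1742 with the antisense gene Gm47123, and Ctsb 774 with Fdft1 on the opposite strand. The sources used here do not state whether reads were counted by strand.

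**Figure D4:**
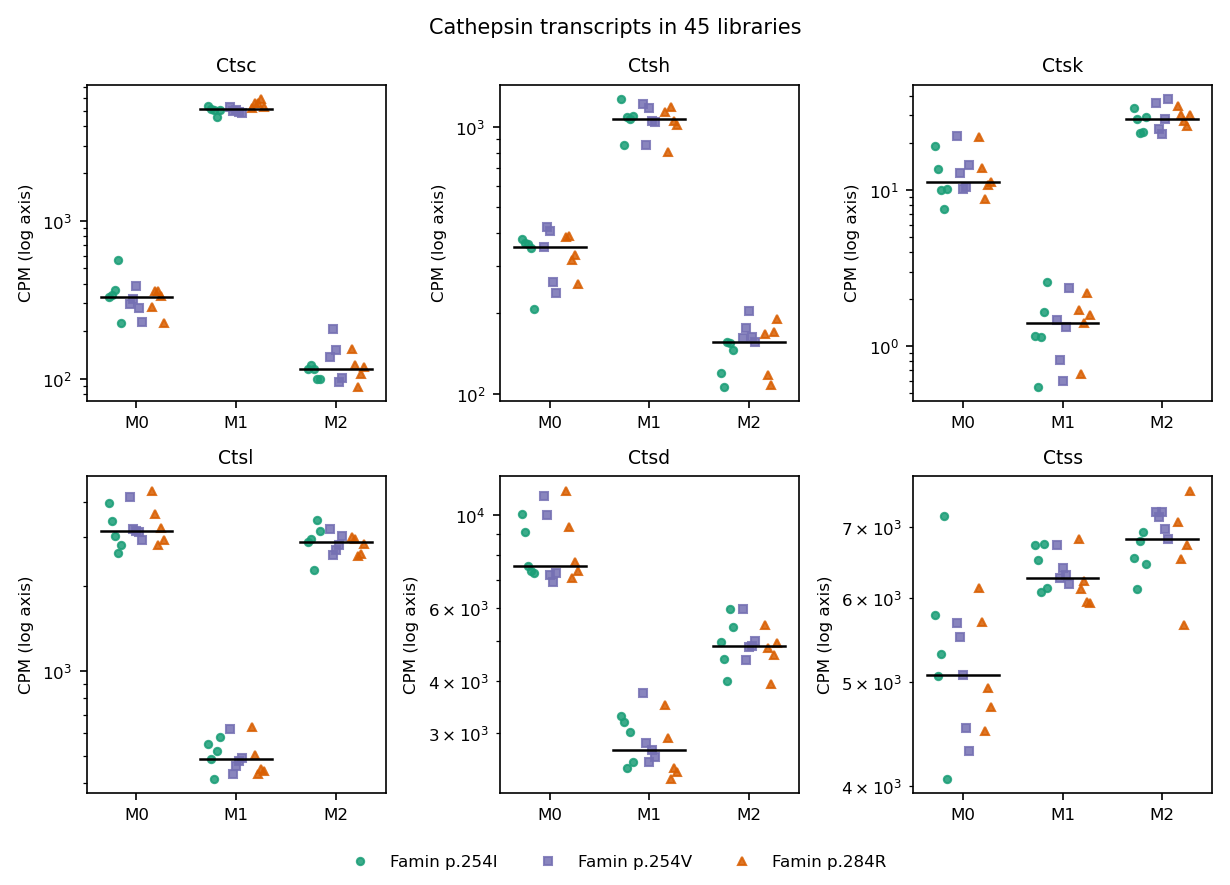
CPM on a log axis (y) of 6 cathepsin genes in M0, M1 and M2 (x), each point a library and each line the median of 15 libraries. Ctsc and Ctsh lie highest in M1 (medians 5129 and 1075 CPM) and lowest in M2 (116 and 156 CPM), whereas Ctsk and Ctsl are lowest in M1 (1.41 and 484 CPM).

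Among 5 tested cystatins and other inhibitors of lysosomal or granule proteases, 2 rose and 3 fell in M1, and 3 rose and 1 fell in M2. Cst7 (cystatin F), an inhibitor of Ctsc and other cysteine proteases, went from a median of 1.44 CPM in M0 to 48.1 CPM in M1 (4.95 ± 0.28) and 10.4 CPM in M2 (2.75 ± 0.28). Serpinb9, an inhibitor of granzyme B, went from 23.4 to 138 CPM in M1 (2.51 ± 0.12). Serpinb6a fell from 904 to 344 CPM in M1 (-1.40 ± 0.07) and to 353 CPM in M2 (-1.32 ± 0.07), and Cstb fell by 0.24 in M1 and rose by 0.38 in M2.

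The other hydrolases fell in M1, with the exception of acid ceramidase. Of 10 genes 9 fell and 1 rose in M1, with a median log2 fold change of -0.367, and 6 fell and 2 rose in M2, with a median of -0.132. Of all genes tested, 40.5% fell and 37.2% rose in M1, and 39.8% fell and 37% rose in M2. Their summed level was 7781 to 9635 CPM in M0 and 5208 to 6950 CPM in M1 without overlap, and 7104 to 8648 CPM in M2. None changed by 2-fold or more against M0. In M1 against M2 only Tpp1 did, 2.28-fold lower in M1 (-1.19 ± 0.04).

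Lipa, the acid lipase that frees cholesterol from its esters, ranged from 2527 to 3675 CPM in M0 and from 1622 to 2020 CPM in M1, a 1.85-fold fall (-0.89 ± 0.04, adjusted p = 1.61e-23), and from 2769 to 3441 CPM in M2 (-0.05 ± 0.04, adjusted p = 0.204, but -0.12 and 0.00474 when scaled by total counts alone). Gusb, which removes glucuronic acid from glycosaminoglycans, fell 1.84-fold (-0.88 ± 0.04, adjusted p = 4.60e-21), from 906 to 1096 CPM to 450 to 649 CPM. Tpp1, a tripeptidyl peptidase, fell 1.77-fold in M1, from 349 to 458 CPM to 195 to 260 CPM, and rose 1.28-fold in M2, to 449 to 591 CPM (0.36 ± 0.04, adjusted p = 1.06e-09). Hexa, a subunit of hexosaminidase, fell in both, from 1314 to 1605 CPM in M0 to 717 to 1140 CPM in M1 (-0.75 ± 0.06) and 924 to 1367 CPM in M2 (-0.36 ± 0.06).

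Asah1 (acid ceramidase), which splits ceramide into sphingosine and a fatty acid, was the 1 gene of the class that rose in M1, from 529 to 783 CPM to 960 to 1239 CPM without overlap (0.72 ± 0.05, adjusted p = 1.02e-16), and it fell by 0.23 in M2. Neu1, the lysosomal sialidase, fell by 0.33 ± 0.05 in M2 (101 to 137 CPM in M0, 72.5 to 104 CPM in M2). Its change in M1 of -0.11 was close to the threshold (adjusted p = 0.0332), and leaving out a mouse raised the adjusted p above 0.05 in 10 of 15 cases. Man2b1, an alpha-mannosidase, fell by 0.34 ± 0.10 in M2, from a range of 987 to 1769 CPM to one of 734 to 1205 CPM.

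Further lysosomal hydrolases outside the 46 moved in both directions, 14 higher and 17 lower of 34 tested in M1 and 9 higher and 18 lower in M2. Their list also holds Sumf1, which activates sulfatases and is not itself a lysosomal hydrolase. The largest rises in M1 were those of Ppt1, which removes palmitate from proteins, from a median of 160 to 1162 CPM (2.91 ± 0.04), and of Sumf1, the activator of sulfatases, from 106 to 301 CPM (1.51 ± 0.03). The largest falls were those of Galc, galactosylceramidase, from 252 to 70.8 CPM (-1.83 ± 0.07), and of the cathepsin Ctsf, from 28.3 to 7.12 CPM (-1.77 ± 0.13). In M2 the largest rises were those of Acp5 (0.85 ± 0.14), the tartrate-resistant phosphatase of osteoclasts, and of Dnase2a (0.73 ± 0.05) and Dpp7 (0.73 ± 0.04), and the largest falls those of Sgsh (-1.94 ± 0.10), which went from 123 to 35.5 CPM, and Ctse (-1.50 ± 0.23), which did not exceed 6.79 CPM in any median.

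Membrane proteins and activators moved apart from each other. In M1 3 of 8 rose, 3 fell and 2 did not pass, and in M2 3 rose, 2 fell and 3 did not pass. Psap, the precursor of the saposins that present sphingolipids to hydrolases, was the most abundant of the 46 per length in M0 (5176 RPKM). It ranged from 11600 to 20500 CPM in M0 and from 18221 to 29711 CPM in M2 (0.67 ± 0.08, adjusted p = 2.54e-09), and reached 15311 to 22194 CPM in M1 (0.24 ± 0.08, adjusted p = 0.00824, and 0.0701 when scaled by total counts alone). Gpnmb, a glycoprotein of lysosomes and melanosomes, fell 3.70-fold in M1 (-1.89 ± 0.10, adjusted p = 2.69e-20), from 8201 to 15444 CPM to 1887 to 4065 CPM. In M2 it held 7847 to 13143 CPM (0.01 ± 0.10, adjusted p = 0.961).

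Cd63, a tetraspanin of late endosomes, fell 1.71-fold in M1, from 227 to 340 CPM to 148 to 205 CPM, and rose 1.57-fold in M2, to 378 to 542 CPM, with no overlap in either comparison. The cholesterol carriers of the lysosome differed from each other in M1. Npc1, the membrane protein, fell 1.71-fold (-0.77 ± 0.06, adjusted p = 2.77e-15), from 273 to 449 CPM to 187 to 226 CPM. Npc2, its soluble partner, rose 1.53-fold (0.61 ± 0.06, adjusted p = 6.00e-12), from 1238 to 2304 CPM to 2142 to 2679 CPM, and fell by 0.27 in M2. Lamp1 and Lamp2 form most of the lysosomal membrane glycoprotein. Lamp2 rose by 0.43 in M1 and by 0.28 ± 0.05 in M2, whereas Lamp1, at 2286 to 3274 CPM in M0 and M1 together, did not pass in either (0.02, adjusted p = 0.746, and 0.01, adjusted p = 0.873). Cd63 has a pseudogene copy, Cd63-ps, and Npc1 shares 511 exon bases with Rmc1 on the opposite strand.

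Among 24 other lysosomal membrane proteins and activators tested, 10 rose and 11 fell in M1, and 9 rose and 13 fell in M2. The chloride and proton exchanger Clcn7 rose from a median of 315 to 901 CPM in M1 (1.54 ± 0.05) and the ganglioside activator Gm2a from 410 to 865 CPM (1.15 ± 0.08), whereas the channels Mcoln3 (-1.86 ± 0.18, 3.49 to 0.905 CPM) and Tpcn1 (-1.54 ± 0.05, 295 to 104 CPM) fell. In M2 Gm2a rose to 680 CPM (0.75 ± 0.07), and Mcoln3 (-1.20 ± 0.17) and the metal transporter Slc11a1 (-1.12 ± 0.06, 471 to 223 CPM) fell.

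Genes that sort hydrolases to the lysosome split in the same way, 7 higher and 9 lower of 18 in M1 and 4 higher and 6 lower in M2. The transferase Gnptab, which starts the mannose 6-phosphate tag, rose in M1 by 0.68 ± 0.03 and the receptor M6pr by 0.56 ± 0.03, while the sorting receptor Sort1 fell from 151 to 12.5 CPM (-3.64 ± 0.16) and the receptor Igf2r from 256 to 121 CPM (-1.10 ± 0.08). In M2 Nagpa rose by 0.46 ± 0.03 and the small GTPase Rab7 by 0.17 ± 0.03, and Sort1 (-0.72 ± 0.14) and Vps39 (-0.71 ± 0.04) fell.

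Of the MiT factors, Mitf changed most. Mitf ranged from 107 to 152 CPM in M0, from 64.1 to 111 CPM in M1 and from 196 to 242 CPM in M2. It fell 1.62-fold in M1 (-0.70 ± 0.06, adjusted p = 2.42e-14) and rose 1.60-fold in M2 (0.68 ± 0.06, adjusted p = 6.76e-14), in 15 of 15 mice each. Tfeb ranged from 47.6 to 64.4 CPM in M0 and from 50 to 61.3 CPM in M1 (-0.03 ± 0.04, adjusted p = 0.425, but -0.13 and 7.83e-04 when scaled by total counts alone), and rose to 61.7 to 77.4 CPM in M2 (0.28 ± 0.04, adjusted p = 2.74e-09). Tfe3 fell by 0.19 in M1, from 197 to 216 CPM to 170 to 191 CPM, and by 0.07 in M2. Tfec, the fourth member of the family and restricted to myeloid cells, went from a median of 30.1 CPM in M0 to 19.6 CPM in M1 (-0.53 ± 0.08) and 55.7 CPM in M2 (0.94 ± 0.08). Per length, Mitf held a median of 36.2% of the RPKM of the 4 factors in M0, 28.6% in M1 and 45.2% in M2.

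Of 21 tested genes of lysosomal nutrient sensing and MiT control, 7 rose and 9 fell in M1, and 9 rose and 9 fell in M2. This list also holds Tfec, itself a MiT factor. The largest rises in M1 were those of Lamtor5 (0.36 ± 0.03) and Slc38a9 (0.28 ± 0.05), and the largest falls those of Rragd, a Rag GTPase, from 27.6 to 4.6 CPM (-2.80 ± 0.15), and Flcn, its regulator, from 120 to 62.7 CPM (-1.06 ± 0.06). In M2, beside Tfec, Slc38a9 rose by 0.69 ± 0.05, and Rragb (-2.01 ± 0.20, from 1.41 to 0.402 CPM) and Fnip2 (-1.05 ± 0.12) fell.

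Promoter sequences from 250 bases before to 50 bases after a start site were given by RefSeq (GRCm38.p6) for 37 of the 46 members, some with several start sites. GTCACGTG, which is 8 bases of the CLEAR element, was searched on both strands and occurred in at least 1 promoter of 8 of these 37 members (21.6%), against 2.55% of all 27025 genes with a promoter. The E-box CACGTG, which that sequence contains, occurred in 12 members (32.4%, against 8.09%), and the M-box TCATGTG in 5 (13.5%, against 4.31%). The CLEAR element was defined on promoters of lysosomal genes, so its presence here is no independent result. The 8 members with GTCACGTG are shown because they are the ones in which the MiT sequence could be read directly, with the match in capitals and a short window of each promoter written 5′ to 3′ on the strand of the gene, where there were several, the nearest match that begins before the start site.
Atp6v0b, chr4:117887349-117887378, minus strand: tgtgcgcggggGTCACGTGgggtcggcgca
Atp6v0d1, chr8:105566051-105566080, minus strand: gccctactgcgGTCACGTGagacgcggtgc
Ctsa, chr2:164833748-164833777, plus strand: atgagcaaactGTCACGTGatgcagatgct
Ctsd, chr7:142387907-142387936, minus strand: cgcccgcgtctCACGTGACccgttgagggc
Glb1, chr9:114401017-114401046, plus strand: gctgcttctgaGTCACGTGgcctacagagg
Gla, chrX:134601183-134601212, minus strand: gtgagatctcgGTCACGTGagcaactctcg
Lamp1, chr8:13159122-13159151, plus strand: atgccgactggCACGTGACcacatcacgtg
Mcoln1, chr8:3500463-3500492, plus strand: ggcgccccgctCACGTGACcgcggcgcatg

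None of the 8 genes with this sequence rose in M1, and in M2 they moved in both directions. In M1 6 of them fell and 2 did not pass, from -1.57 (Ctsd) to 0.02 (Lamp1) with a median of -0.24, and in M2 3 rose, 4 fell and 1 did not pass, with a median of -0.04. Of the 29 members whose promoters lacked it, 8 rose and 16 fell in M1, with a median of -0.19. In M2 17 of them rose and 8 fell, with a median of 0.28. No GTCACGTG, E-box or M-box was found in the promoters of Ctsc, Ctsk, Atp6v0a1, Gpnmb, Lipa and Gusb. These changed more in M1 than Tpp1 (log2 fold changes of 3.99, -3.23, -2.19, -1.89, -0.89 and -0.88, against -0.83). Among other members with large changes, Atp6v1a and Ctsl held an E-box outside GTCACGTG and Tpp1 a pair of M-boxes, shown with the same marking.
Atp6v1a, E-box, chr16:44139373-44139402, minus strand: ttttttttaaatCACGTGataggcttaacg
Ctsl, E-box, chr13:64370739-64370768, minus strand: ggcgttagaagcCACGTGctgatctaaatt
Tpp1, M-box, chr7:105752213-105752242, minus strand: ccagaccatgcTCATGTGacttatcacatg

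Atp6v1a, Ctsl and Tpp1 were picked for a large change together with an E-box or M-box. All fell in M1 (log2 fold changes of -1.17, -2.72 and -0.83). In M2 Tpp1 rose, Ctsl fell and Atp6v1a did not pass. The other members with an E-box or M-box but no GTCACGTG were Ctss, Gaa, Atp6v0e and Atp6v0c. In M1 Ctss rose (0.28), Gaa fell (-0.22), and Atp6v0e (0.06) and Atp6v0c (-0.03) did not pass. In M2 Ctss, Atp6v0e and Atp6v0c rose and Gaa did not pass. For Atp6v0d2 and Ctsh, which changed strongly, no promoter was given. No match was found for Tfeb, Tfe3 or Mitf, which says only that these letters are absent from the windows searched.

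No member differed between Famin genotypes at an adjusted p under 0.05. Each variant was set against the same Famin p.254I libraries, averaged over the polarizations, within each of them, and as an interaction with polarization. None of the 46 passed edgeR's test in any of these 12 comparisons, nor with DESeq2 or limma-voom. For comparison, 3 of all genes tested (0.0232%) passed for Famin p.284R and 2 (0.0155%) for Famin p.254V in the averaged comparison, and 35 (0.271%) for Famin p.284R within M1 and 1 (0.00775%) within M2. With the replicate number as a block these counts for Famin p.284R became 8 in the averaged comparison and 78 within M1, still with 0 members among them. The averaged differences of the 46 members ranged from -0.18 (Man2b1) to 0.14 (Ctsk) in Famin p.284R and from -0.13 (Atp6v0d2) to 0.11 (Ctsh) in Famin p.254V on the log2 scale, with standard errors of 0.02 to 0.20 and a median standard error of 0.05. The averaged fit counted cultures of 1 mouse as separate libraries, although their deviations from group means correlated (median 0.196). These averaged standard errors and their p-values may therefore be too small. Libraries that share a number across genotypes also correlated (medians of 0.463 in M0, 0.212 in M1 and 0.226 in M2). The fit left this out as well, which may instead make standard errors and p-values of genotype comparisons too large. Which of these weighs more was not tested. A p that misses the threshold does not show that the genotypes are alike, and within single polarizations the standard errors reached 0.40.

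Ctsz was the member nearest to the threshold for Famin p.284R (0.14 ± 0.06, adjusted p = 1 by edgeR). In M1 its 5 libraries of Famin p.284R held 1472, 1254, 1514, 1644 and 1826 CPM, those of Famin p.254I 1374, 1059, 1273, 1223 and 1358 CPM, and those of Famin p.254V 1472, 1023, 1302, 1279 and 1506 CPM. The ranges overlapped, Famin p.284R was higher than Famin p.254I in 5 of 5 same-numbered pairs, and the difference in M1 was 0.29 ± 0.11 (unadjusted p = 0.00961, edgeR, adjusted p = 0.454). In M0 Famin p.284R held 919 to 1263 CPM and Famin p.254I 919 to 1182 CPM, and in M2 1944 to 2421 CPM and 1812 to 2352 CPM.

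Tfeb was the member nearest to the threshold for Famin p.254V (0.08 ± 0.04, adjusted p = 1 by edgeR). Its levels in M0 were 61.3, 64.4, 56.5, 54.9 and 58.6 CPM in Famin p.254V and 58.6, 58.0, 60.4, 47.6 and 52.4 CPM in Famin p.254I. In M1 they were 57.0, 56.9, 61.3, 60.1 and 56.4 CPM against 59.8, 57.1, 58.1, 50 and 52.0 CPM, and in M2 63.6, 77.4, 75.3, 71.6 and 70.5 CPM against 62.9, 69.6, 71.9, 68.4 and 71.6 CPM. The groups overlapped under every polarization. Famin p.284R held 58.0 to 60.8 CPM in M0, 52.6 to 59.4 CPM in M1 and 61.7 to 75.4 CPM in M2.

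**Figure D5:**
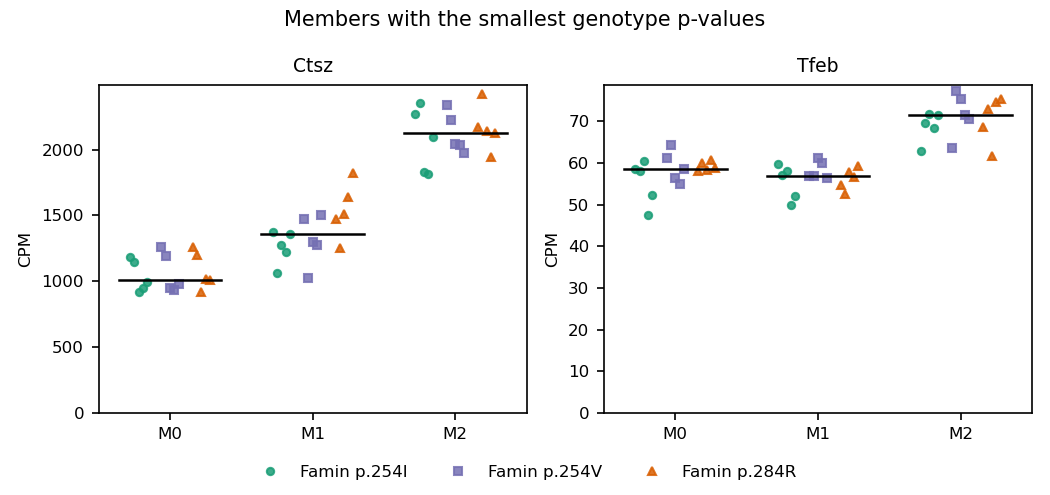
CPM (y, from 0) of Ctsz and Tfeb in M0, M1 and M2 (x) by Famin genotype, each point a library (5 per genotype and polarization) and each line the median of the 15 libraries of a polarization. The genotypes overlap for both genes under every polarization.

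At an unadjusted p under 0.05, 4 of the 46 members stood out for Famin p.284R in M1, where 6.83% of all genes did. In the averaged comparisons 2 members did for Famin p.284R (4.32% of all genes) and 1 for Famin p.254V (2.53%). For Famin p.254V it was 0 in M0 (1.91%), 0 in M1 (0.876%) and 1 in M2 (2.76%), and for Famin p.284R 0 in M0 (1.18%) and 0 in M2 (1.18%). Of the interactions, 1 member did for Famin p.254V in M2 (1.33%) and none for Famin p.254V in M1 (0.829%) or for Famin p.284R in M1 (2.8%) or M2 (0.558%). The members of Famin p.284R in M1 were, beside Ctsz, Atp6v0a1 (-0.30 ± 0.12), Gusb (-0.18 ± 0.08) and Mitf (0.22 ± 0.10), with adjusted p of 0.52 to 0.64 by edgeR. Atp6v0a1 in M1 held 137, 125, 110, 139 and 123 CPM in Famin p.284R and 121, 127, 146, 183 and 203 CPM in Famin p.254I, which overlapped. The widest point estimates within a polarization belonged to Atp6v0d2 in M1, at -0.55 for Famin p.284R and -0.56 for Famin p.254V against Famin p.254I, whose replicate 5 is the library at 71.7 CPM.

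Most polarization changes had the same direction in the 3 genotypes. The sign was the same in all 3 for 43 of the 46 members in M1 and for 44 in M2. Among these were the 39 members called in M1 and the 40 called in M2. Those calls rest on the mean over the same genotypes, so equal signs among called members are no independent result. The genotypes differed most in Atp6v0d2 for M1 (-4.10 with p.254I, -4.74 with p.254V and -4.72 with p.284R) and in Ctsc for M2 (-1.73, -1.13 and -1.40). The interaction for Ctsc in M2 with Famin p.254V was 0.60 ± 0.24 (unadjusted p = 0.0172, edgeR, adjusted p = 1). Summed over the 16 V-ATPase genes, the mean ± SD (n = 5) in M0 was 5510 ± 583.5 CPM for the non-risk allele p.254I, 5597 ± 327 CPM for p.254V and 5653 ± 485.5 CPM for p.284R, and in the same order 3592 ± 203, 3528 ± 171 and 3583 ± 78.5 CPM in M1, and 8719 ± 446.5, 8574 ± 292 and 8532 ± 245 CPM in M2.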

How the data were processed

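Poly(A) RNA of 45 cultures was sequenced with stranded single-end libraries. Per the labels and the study's methods, reads were checked with FastQC, trimmed with Trim Galore and aligned to mm10 with HISAT2, whereas the series' design text names Cutadapt and STAR. The counting tool, annotation and use of strand are not given in the sources used here. The authors deposited raw counts per gene and a table of CPM. All CPM values came out as whole reads equal to the counts (100%, tolerance 0.01), and 0 columns stayed unmapped.

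Counts were fitted with edgeR 4.0.16 (R 4.3.3) as 9 groups in 1 quasi-likelihood model, after filterByExpr and TMM scaling, with Benjamini-Hochberg adjustment over 12905 genes and a threshold of 0.05. A second rule asked for a log2 fold change of at least 1. CPM printed here are counts relative to the TMM-scaled library total, and RPKM divide them by the exon length of GENCODE vM21. Alternatives were DESeq2 1.42.0, limma-voom (limma 3.58.1), other scalings and filters, replicate blocks and leaving out each mouse.

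Same-numbered libraries of a genotype were taken as cultures of 1 mouse, a reading of the titles and of the 5 mice per genotype in the design text. The deviations of these libraries from their group means correlated above 0.1 in 37 of 45 pairs (median 0.196). Libraries that share a number across genotypes correlated above 0.1 in 15 of 15 pairs in M0 and in M1 and in 13 of 15 in M2. No pair of libraries was identical.

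Genes named with values were, in each class, the 4 called members with the largest change in M1 and in M2, the 3 MiT factors, the member with the smallest p in each averaged genotype comparison, and the 2 largest rises and falls of each further list. Other members named were chosen after their values were seen. A gene that this rule names is not reported here. The members and lists were chosen with earlier results of these data known. Promoters were matched by symbol to RefSeq (GRCm38.p6).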

Additional observations from a re-analysis of the deposited data

Results flagged for a closer look

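For the 9 genes discussed by genotype, the 5 libraries of each of the 9 groups were searched for a library far from the others, with Dixon's ratio of the gap to the range against its critical value of 0.710. Of 81 groups, 5 were past it, and chance alone flags about 1 in 20 groups. The Atp6v0d2 level of Famin p.254I replicate 5 in M1 was 71.7 CPM, with the next library at 27.7 CPM (ratio 0.745). The Ctsh level of Famin p.254I replicate 5 in M0 was 208 CPM, below the next at 352 CPM (0.831). Lipa in Famin p.254I replicate 4 in M2 was at 2769 CPM, below 3070 CPM (0.773). Replicate 2 of Famin p.254V was lowest for Gusb in M2, at 818 CPM with the next at 945 CPM (0.738), and for Mitf in M1, at 65.0 CPM with the next at 78.5 CPM (0.714). The set of genes searched was widened from 3 to 9 after the first result was seen.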

How the results depend on the processing

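The numbers of members called in the polarization comparisons stayed within 1.5 times of those reported under the alternatives run, from 38 to 40 in M1 and from 39 to 40 in M2 when each mouse was left out. With total counts in place of TMM, the median of all genes moved to -0.132 in M1 and -0.090 in M2, and 41 members (9 higher, 32 lower) were called in M1 and 39 (22 higher, 17 lower) in M2. Of all genes called in M1, 37.7% were then higher, against 47.9% with TMM. The median of membrane proteins and activators turned to -0.09 in M1 and -0.05 in M2, and Gpnmb in M2 to -0.06, a change that also turned to -0.00, -0.01 and -0.01 without Famin p.254I replicate 5, Famin p.254V replicate 4 and Famin p.284R replicate 3 (leaving out each mouse gave -0.01 to 0.05). The causes were not tested. The replicate block by mouse and by number gave 39 members in M1, 40 in M2 and 39 in M1 against M2, as without it. Some single calls changed, listed here only for the genes that the naming rule picked. With total counts in place of TMM, Psap in M1 (adjusted p = 0.0701) and Atp6v1c1 in M2 (0.223) were lost, and Tfeb in M1 (7.83e-04) and Lipa in M2 (0.00474) were gained, by edgeR. Neu1 in M1 was lost without the count filter (0.0789) and without 10 of the mice (0.0528 to 0.0939). Without 1 mouse, Ctsl (0.0503, Famin p.254I replicate 1), Gusb (0.0581, Famin p.284R replicate 3) and Tfe3 (0.0538, Famin p.254V replicate 2) were lost in M2 and Atp6v1a (0.0299, Famin p.254V replicate 2) was gained. Genotype comparisons called 0 members with edgeR, DESeq2 and limma-voom, but the counts over all genes were unstable. For Famin p.284R within M1, edgeR's 35 became 78 with the replicate block by number, 64 with DESeq2, 11 with limma-voom and 7 when limma-voom treated mice as random effects. A model restricted to both groups compared called 1 gene. Dropping single mice gave 6 to 118, with 110 and 118 without Famin p.284R replicates 1 and 2, 7, 6 and 8 without its replicates 3, 4 and 5, and 16 and 15 without Famin p.254I replicates 2 and 4. When single mice were dropped, the averaged count became 2 to 18 for Famin p.284R. It was 18 and 5 without Famin p.284R replicates 1 and 2, and 7 without Famin p.254I replicate 3. For Famin p.254V dropping mice gave 1 to 4 (4 without Famin p.254I replicate 2). DESeq2 called 11 and 5 genes in the averaged comparisons of Famin p.284R and Famin p.254V, and limma-voom 3 and 0. With mice as random effects limma-voom called 1 and 0. Depth limits low genes such as Ctsk in M1.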
